A study of Mus musculus with 16 samples.

Results

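The 4 genes described here encode the feeding peptides of the arcuate nucleus, *Agrp* (ENSMUSG00000005705), *Npy* (ENSMUSG00000029819), *Pomc* (ENSMUSG00000020660) and *Cartpt* (ENSMUSG00000021647), chosen by symbol and matched to 4 of the 55401 gene identifiers. All 4 had expected counts in all 16 libraries and passed the filter on low counts (above 1 CPM, the unit of counts scaled to library size, in 1 or more libraries), which 15808 genes passed in all. The libraries are RNA-seq of whole hypothalamus from 16 male mice aged 3 months with a C57BL/6 background, 4 wild-type (WT) and 4 ASIC1a-/- mice at Zeitgeber time (ZT) 1, an hour after lights on at 7:00, and 4 of each genotype at ZT13, an hour after lights off. Each library is from 1 mouse. The ASIC1a-/- mice lack the acid-sensing ion channel 1a in the whole body and, like the WT mice, came from heterozygous parents, lived in a 12 h light:12 h dark cycle and had free access to food and water. No group was fasted, and the food intake of these mice before death is not given in the sources used here. The question addressed was whether the transcripts of the 4 peptides differ between the genotypes and between the start of the light phase, when mice rest, and the start of the dark phase, when they feed.

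The arcuate nucleus lies at the base of the hypothalamus beside the median eminence and holds neurons with opposed actions on food intake. AgRP/NPY neurons make agouti-related peptide, an inverse agonist of the melanocortin receptors MC3R and MC4R, and neuropeptide Y, which acts on its own Y receptors, and they drive feeding. POMC neurons cut pro-opiomelanocortin into α-MSH, the agonist of the same melanocortin receptors, and many of them also make the CART peptides encoded by *Cartpt*, which reduce feeding. *Agrp* is nearly restricted to the arcuate nucleus within the brain, *Pomc* is also made by the pituitary, *Npy* by interneurons of many brain regions, and *Cartpt* by neurons of other hypothalamic nuclei. In whole tissue, a lower transcript level in fewer cells and a lower level per cell cannot be told apart.

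In the GENCODE annotation of GRCm38, *Agrp* lies on the minus strand of chromosome 8 (105566698 to 105637393, 3 transcripts), *Npy* on the plus strand of chromosome 6 (49822710 to 49829507, 1 transcript), *Pomc* on the plus strand of chromosome 12 (3954951 to 3960642, 5 transcripts) and *Cartpt* on the minus strand of chromosome 13 (99898489 to 99901091, 2 transcripts). An exon of *Agrp* overlaps *Ctcf* on the opposite strand and *Gm5914* on the same strand by 114 bases each. Whether counting used the strand is not stated. The transcript length that RSEM assigned to *Agrp* stayed at 661 to 665 bases, the length of the short 5-exon transcript.

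The start-site windows of *Pomc* and *Cartpt* are shown because these 2 transcripts varied together between mice (below), and that of *Npy* is shown beside them. The windows come from RefSeq (GRCm38.p6), run from 250 bases before the start to 50 after it, and read 5′ to 3′ on the gene's strand. A window was at hand for 3 of the 4 genes. Capitals mark matches, on either strand, to 6 motifs: the TATA box TATAAA, the E-box CACGTG, the short cAMP response element TGACG, the STAT site TTCNNNGAA, the FOXO site TGTTTAC and the short glucocorticoid receptor site AGAACA.
Pomc, chr12:3954695-3954994, plus strand: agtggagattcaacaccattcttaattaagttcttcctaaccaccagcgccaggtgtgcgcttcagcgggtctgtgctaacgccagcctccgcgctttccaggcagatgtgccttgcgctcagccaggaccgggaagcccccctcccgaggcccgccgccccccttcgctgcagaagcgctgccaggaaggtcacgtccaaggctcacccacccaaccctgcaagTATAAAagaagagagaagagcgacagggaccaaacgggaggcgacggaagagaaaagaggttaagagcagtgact
Cartpt, chr13:99900634-99900933, minus strand: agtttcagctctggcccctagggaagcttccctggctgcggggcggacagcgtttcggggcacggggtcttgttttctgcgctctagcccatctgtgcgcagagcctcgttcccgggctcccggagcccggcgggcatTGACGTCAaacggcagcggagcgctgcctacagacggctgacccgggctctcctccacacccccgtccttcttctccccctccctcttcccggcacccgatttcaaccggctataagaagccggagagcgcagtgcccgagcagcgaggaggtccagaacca
Npy, chr6:49822460-49822759, plus strand: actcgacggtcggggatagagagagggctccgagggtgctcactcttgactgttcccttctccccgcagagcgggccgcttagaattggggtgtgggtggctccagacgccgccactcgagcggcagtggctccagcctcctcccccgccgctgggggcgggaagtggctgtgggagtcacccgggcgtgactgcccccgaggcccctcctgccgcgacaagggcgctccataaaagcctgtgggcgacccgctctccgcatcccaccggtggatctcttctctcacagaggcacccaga
The *Pomc* window held 1 match, a TATA box that begins 25 bases before the start, a motif found in 13.6% of the 32851 windows of the same length. The *Cartpt* window held the short cAMP response element once on each strand, at 112 and 109 bases before the start. These matches overlap by 2 bases, so that together they spell TGACGTCA. The short form occurs in 20.8% of windows and the 8-base form, looked up after the match was seen, in 1.79%. The *Npy* window held none of the 6. The *Pomc* and *Cartpt* windows shared no motif of the 6, which says nothing of factors that bind elsewhere or to other letters.

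The libraries held 34888522 to 42326259 expected counts (median 35750448). *Asic1*, the gene of the deleted channel, was at 101 to 106 CPM in WT and 64.9 to 70.0 CPM in ASIC1a-/- libraries at ZT1, and at 97.1 to 102 and 69.9 to 71.9 CPM at ZT13, so that the genotypes did not overlap at either time and the labels held in 16 of 16 libraries, although the locus still gave counts in ASIC1a-/- mice. Of 14 clock genes, 12 passed the test between ZT13 and ZT1 (mean of both genotypes), which 26.4% of all tested genes passed. *Per2* was higher by 0.55 and *Dbp* by 0.44, and *Arntl* was lower by 0.27, on the log2 scale. The 9 markers of hypothalamic nuclei were present in every library, the lowest being *Vip* at 2.18 CPM, with a summed level of 950 to 1401 CPM. Several libraries stood apart in tissue markers. The 9 meningeal markers summed to 387 CPM in ASIC1a-/- ZT1 replicate 4 and 199 CPM in ASIC1a-/- ZT13 replicate 2, against 49.3 to 112 CPM in the other 14 libraries. The 7 tanycyte markers, genes of the cells that line the floor of the third ventricle beside the arcuate nucleus, summed to 83.2 CPM in ASIC1a-/- ZT1 replicate 2 and to 106 to 134 CPM in the other libraries. The 10 markers of striatum, cortex and thalamus summed to 68.5 CPM in WT ZT1 replicate 4 and 45.9 to 56.0 CPM in the others. The comparisons were also made without these 4 libraries.

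On the TPM scale, a share of all transcripts in the library that is corrected for transcript length, *Cartpt* was the most abundant of the 4 at 128 ± 8.97 TPM (SD, n = 16), followed by *Npy* at 109 ± 13.7, *Pomc* at 108 ± 14.2 and, well below, *Agrp* at 13.9 ± 2.34 TPM. *Agrp* was the lowest of the 4 in 16 of 16 libraries. *Cartpt* was the highest in 13 libraries and *Npy* in 3, and *Cartpt* lay above *Pomc* in all 16, with 1.19 times as much on average. *Npy* lay above *Pomc* in 8 of 16 libraries. The order was *Cartpt*, *Npy*, *Pomc*, *Agrp* in WT mice at both times and in ASIC1a-/- mice at ZT13. In ASIC1a-/- mice at ZT1, *Pomc* (118 ± 14.6 TPM, n = 4) was placed before *Npy* (94.1 ± 19.1 TPM). In each of the 4 groups the ranges of *Npy* and *Pomc* overlapped, as did those of *Cartpt* and the gene next to it. By these ranges only the place of *Agrp* was clear of the spread between mice. Within single libraries, *Cartpt* above *Pomc* held as often as *Agrp* lowest, in 16 of 16. By median TPM rank over the 55401 genes, *Cartpt* stood at 1282, *Npy* at 1524, *Pomc* at 1574 and *Agrp* at 8876.

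The depth behind the 4 genes differed. *Agrp* rested on 78 to 187 counts per library, *Npy* on 614 to 1115, *Pomc* on 1192 to 2148 and *Cartpt* on 1624 to 2185. For *Agrp* in ASIC1a-/- mice at ZT1, counting alone gives a coefficient of variation of 9.55% and the 4 mice showed 20.8%. *Agrp* is therefore the least precise of the 4, with standard errors of about 0.14 on the log2 scale, against 0.063 for *Cartpt*.

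*Agrp*, the melanocortin antagonist, was lowest in ASIC1a-/- mice at ZT1. In WT mice at ZT1 it was at 4.27, 3.74, 3.85 and 3.22 CPM in replicates 1 to 4 (mean 3.77 ± 0.432, SD, n = 4). In ASIC1a-/- mice at ZT1 it was at 3.64, 2.18, 3.03 and 3.41 CPM (mean 3.07 ± 0.638). The groups overlapped, with 2 of the 4 ASIC1a-/- mice below every WT mouse and replicate 2 lowest of all 16. At ZT13 the values were 4.00, 3.81, 4.51 and 3.53 CPM in WT mice (mean 3.96 ± 0.412) and 3.68, 4.55, 4.40 and 3.55 CPM in ASIC1a-/- mice (mean 4.05 ± 0.504), and the genotypes overlapped almost fully.

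*Npy*, the partner peptide of the same neurons, showed a like picture at a higher level. In WT mice at ZT1 it was at 23.9, 24.1, 27.0 and 25.3 CPM (mean 25.1 ± 1.44), a narrow range. In ASIC1a-/- mice at ZT1 it was at 25.7, 18.0, 22.1 and 17.1 CPM (mean 20.7 ± 3.97), so that 3 of 4 mice lay below every WT mouse and replicate 1 lay within the WT range. At ZT13 it was at 25.0, 25.7, 25.7 and 22.5 CPM in WT mice (mean 24.7 ± 1.52) and 23.2, 24.7, 26.3 and 21.7 CPM in ASIC1a-/- mice (mean 24.0 ± 1.95), which overlapped.

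*Pomc*, the precursor of α-MSH, spread widely within groups. At ZT1 it was at 53.2, 48.9, 40.7 and 42.9 CPM in WT mice (mean 46.4 ± 5.69) and 46.1, 50.8, 59.8 and 55.1 CPM in ASIC1a-/- mice (mean 52.9 ± 5.85), with 2 ASIC1a-/- mice above every WT mouse. At ZT13 it was at 54.7, 49.9, 33.8 and 47.4 CPM in WT mice (mean 46.5 ± 8.98) and 46.6, 50.2, 40.3 and 49.1 CPM in ASIC1a-/- mice (mean 46.5 ± 4.39). The lowest value of the 16, in WT ZT13 replicate 3, and the highest, in ASIC1a-/- ZT1 replicate 3, were both ends of spreads within single groups.

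*Cartpt*, the precursor of the CART peptides, was the steadiest of the 4. At ZT1 it was at 55.7, 57.5, 50.7 and 53.1 CPM in WT mice (mean 54.2 ± 2.98) and 53.6, 55.9, 60.4 and 54.3 CPM in ASIC1a-/- mice (mean 56.1 ± 3.08). At ZT13 it was at 56.7, 57.4, 46.0 and 55.3 CPM in WT mice (mean 53.8 ± 5.27) and 54.4, 58.1, 51.5 and 58.0 CPM in ASIC1a-/- mice (mean 55.5 ± 3.19). Its lowest and highest values were in the same 2 libraries as those of *Pomc*. The plot of CPM by group gives each mouse's value for all 4 genes.

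**Figure D1:**
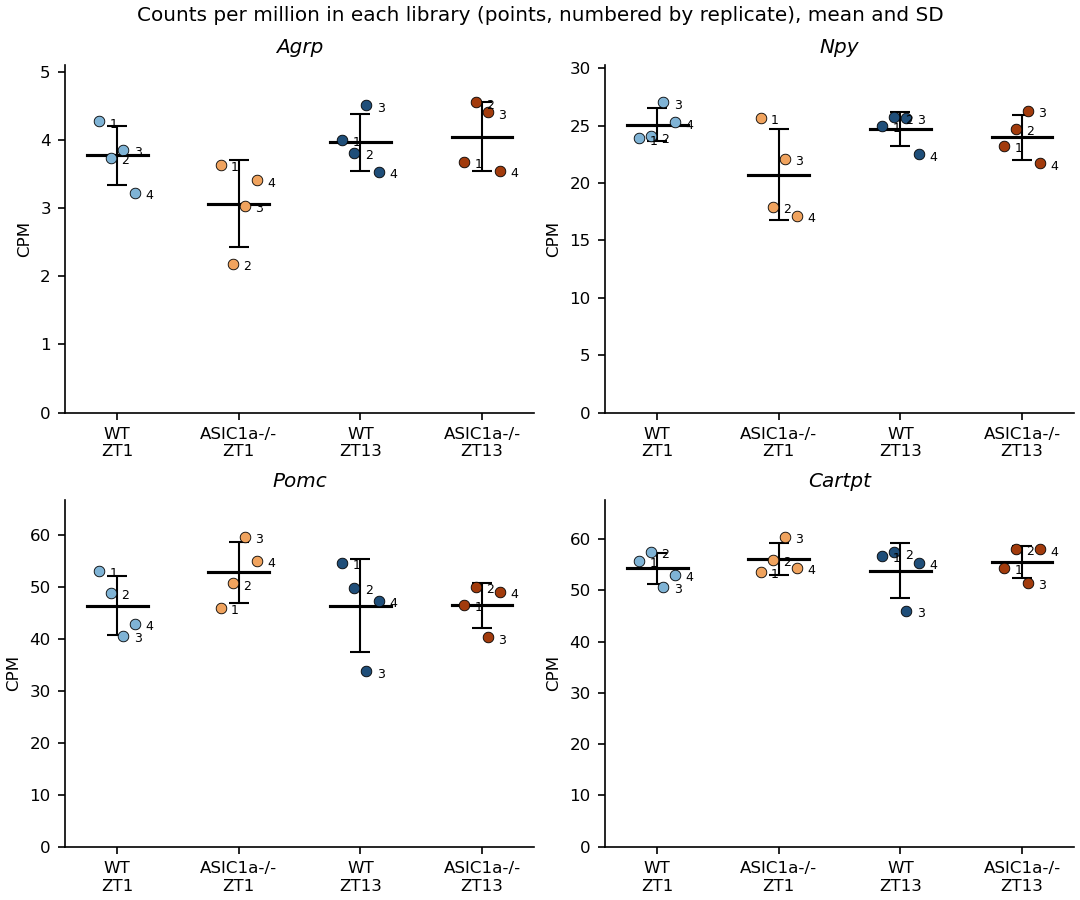
Counts scaled to library size (CPM, vertical axes from 0, 1 panel per gene) of *Agrp*, *Npy*, *Pomc* and *Cartpt* in each library, by group on the horizontal axes, with points numbered by replicate and bars for the mean and SD of 4 mice. The groups overlap for every gene, and *Npy* in ASIC1a-/- mice at ZT1 (17.1 to 25.7 CPM) spreads below the WT range of 23.9 to 27.0 CPM.

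None of the 4 genes passed the test between genotypes, at an adjusted p under 0.05 with edgeR's quasi-likelihood test over all tested genes. At ZT1, 0.0127% of tested genes passed (2 genes, with 1107 at an unadjusted p under 0.05). There, *Npy* was at 20.7 CPM in ASIC1a-/- against 25.1 CPM in WT mice, a log2 difference of -0.27 (SE 0.0963, 95% interval -0.48 to -0.072, adjusted p = 0.680), which is -17.3% with an interval of -28.2% to -4.86%. Its unadjusted p of 0.0107 placed it 227th of the 15808 genes. *Agrp* differed by -0.30 (SE 0.144, interval -0.60 to 0.0038, adjusted p = 0.713). The intervals therefore reach from little or no difference to a level lower by 0.48 (*Npy*) or 0.60 (*Agrp*) on the log2 scale. *Pomc* went the other way, at 0.19 (SE 0.119, interval -0.061 to 0.44, adjusted p = 0.787), and *Cartpt* differed by 0.047 (SE 0.0629, interval -0.085 to 0.18, adjusted p = 0.900).

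The difference of *Npy* at ZT1 rested on few mice. That of *Agrp* shrank most, among single libraries left out, without ASIC1a-/- ZT1 replicate 2. Without ASIC1a-/- ZT1 replicates 2 and 4, WT ZT1 replicate 4 and ASIC1a-/- ZT13 replicate 2, the 4 libraries apart in tissue markers, *Npy* differed by -0.065 (adjusted p = 1.00) and *Agrp* by -0.25 (adjusted p = 1.00). Without ASIC1a-/- ZT1 replicate 2 alone, the library lowest in tanycyte markers, *Agrp* differed by -0.17 (adjusted p = 0.961) and *Npy* by -0.21 (adjusted p = 0.780). Without ASIC1a-/- ZT1 replicate 1, the mouse in the WT range, *Npy* differed by -0.39 (adjusted p = 0.342) and *Agrp* by -0.39 (adjusted p = 0.451). Over the 28 alternatives the adjusted p of *Npy* at ZT1 ran from 0.342 to 1.00 and that of *Agrp* from 0.451 to 1.00.

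At ZT13, where 0.101% of tested genes passed (16 genes, 0.0822% higher and 0.019% lower, with 591 at an unadjusted p under 0.05), the fitted log2 differences of the 4 peptides between genotypes were small. *Agrp* differed by 0.031 (interval -0.26 to 0.33), *Npy* by -0.041 (-0.24 to 0.16), *Pomc* by 0.00053 (-0.25 to 0.25) and *Cartpt* by 0.043 (-0.089 to 0.17), each with an adjusted p of 1.00. Averaged over both times, where 0.0633% of tested genes passed (10 genes, 0.0506% higher, with 1075 at an unadjusted p under 0.05), *Npy* differed by -0.16 (SE 0.0676, interval -0.30 to -0.016, adjusted p = 0.721) and *Agrp* by -0.13 (SE 0.101, interval -0.35 to 0.077, adjusted p = 0.830). *Pomc* differed by 0.095 (adjusted p = 0.870) and *Cartpt* by 0.045 (interval -0.048 to 0.14, adjusted p = 0.877). Without the 4 libraries apart in tissue markers the mean difference was -0.060 for *Npy* and 0.057 for *Pomc*, without ASIC1a-/- ZT1 replicate 2 it was -0.068 for *Agrp*, and without WT ZT13 replicate 3 it was 0.033 for *Pomc*.

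None of the 4 passed the test between the times either, against a background of 13.3% of tested genes in WT (7.52% higher and 5.76% lower), 11.3% in ASIC1a-/- mice (6.72% and 4.62%) and 26.4% for the mean of both genotypes. In WT mice the fitted log2 differences of ZT13 against ZT1 were 0.071 for *Agrp* (interval -0.23 to 0.37, adjusted p = 0.803), -0.021 for *Npy* (-0.22 to 0.18, adjusted p = 0.921), 0.00073 for *Pomc* (-0.25 to 0.25, adjusted p = 0.998) and -0.011 for *Cartpt* (-0.14 to 0.12, adjusted p = 0.941). For *Cartpt*, the interval leaves room for a change of -9.45% to 8.81% between rest and feeding time in WT mice, given this fit. With the log2 level of *Gh*, a pituitary transcript that differed between groups, added to the fit the *Cartpt* difference was -0.19 on the log2 scale (adjusted p = 0.285, range over alternatives 0.285 to 1.00), which lies outside that interval. For *Agrp* it leaves room for -14.6% to 29.1%.

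In ASIC1a-/- mice the 2 peptides of the AgRP/NPY neurons were higher at ZT13 than at ZT1 by the point estimate, without passing the test. *Agrp* was at 4.05 against 3.07 CPM, a log2 difference of 0.40 (SE 0.143, interval 0.10 to 0.70, adjusted p = 0.0799), with 3 of 4 mice at ZT13 above every mouse at ZT1. *Npy* differed by 0.21 (SE 0.0962, interval 0.0099 to 0.41, adjusted p = 0.168), *Pomc* by -0.19 (SE 0.119, interval -0.44 to 0.062, adjusted p = 0.338) and *Cartpt* by -0.015 (SE 0.0627, interval -0.15 to 0.12, adjusted p = 0.904). This comparison and that of genotypes at ZT1 share the 4 ASIC1a-/- libraries at ZT1, so they are not independent.

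One mouse decided these calls. Without ASIC1a-/- ZT1 replicate 1, the difference of *Agrp* in ASIC1a-/- mice was 0.49 (adjusted p = 0.0482) and that of *Npy* was 0.33 (adjusted p = 0.0167), both past the threshold, and *Npy* averaged over genotypes differed by 0.16 (adjusted p = 0.0462). Without replicate 2 instead, *Agrp* differed by 0.27 (adjusted p = 0.216) and *Npy* by 0.15 (adjusted p = 0.383). Without replicate 4, *Npy* differed by 0.13 (adjusted p = 0.404). Without the 4 libraries apart in tissue markers, *Agrp* differed by 0.22 (adjusted p = 0.454) and *Npy* by -0.0071 (adjusted p = 0.976). Over the 28 alternatives the adjusted p ran from 0.0482 to 0.454 for *Agrp* and from 0.0167 to 0.976 for *Npy*.

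Averaged over both genotypes, *Agrp* was higher at ZT13 by 0.24 (SE 0.101, interval 0.024 to 0.45, unadjusted p = 0.0310, adjusted p = 0.0928), *Npy* by 0.096 (adjusted p = 0.322), and *Pomc* and *Cartpt* differed by -0.093 (adjusted p = 0.452) and -0.013 (interval -0.11 to 0.080, adjusted p = 0.863). The interaction, the difference between the genotypes in the change from ZT1 to ZT13, was 0.33 for *Agrp* (interval -0.093 to 0.75), 0.23 for *Npy* (-0.051 to 0.52), -0.19 for *Pomc* (-0.54 to 0.17) and -0.0047 for *Cartpt* (-0.19 to 0.18). Each had an adjusted p of 1.00, in a comparison that 0.019% of tested genes passed (3 genes, with 618 at an unadjusted p under 0.05). Without the 4 libraries apart in tissue markers, the mean difference over time was 0.11 for *Agrp* (adjusted p = 0.463, range over alternatives 0.0478 to 0.463) and -0.012 for *Npy*, and the interaction was 0.22 for *Agrp* and 0.0097 for *Npy*. With log2 *Gh* added to the fit, the interaction was -0.041 for *Agrp* and -0.0096 for *Npy*. The change over time was thus not shown to differ between genotypes for any of the 4.

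**Figure D2:**
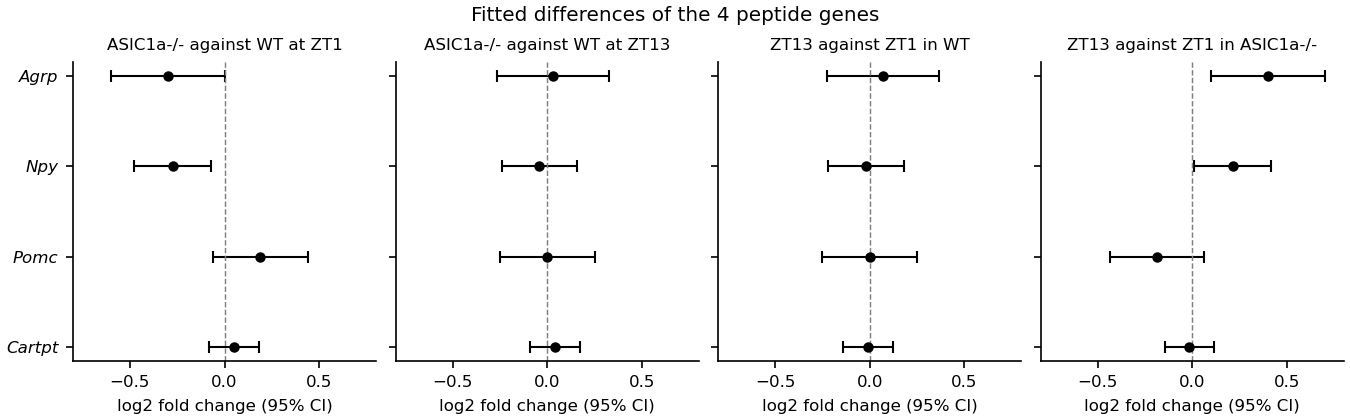
Fitted log2 fold changes (horizontal axes) of the 4 peptide genes in 4 comparisons, 1 panel each, with points for the estimate and bars for its 95% interval. The intervals of *Cartpt* are the narrowest in each panel, and in ASIC1a-/- mice those of *Agrp* (0.10 to 0.70) and *Npy* (0.0099 to 0.41) between ZT13 and ZT1 lie above 0, although neither passed after adjustment.

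*Pomc* is also a gene of the pituitary, and pituitary transcripts were present at levels that differed between groups. The 10 pituitary markers, 6 of them tested, summed to 3.37 to 6.66 CPM in WT mice at ZT1, 7.81 to 16.4 CPM in ASIC1a-/- mice at ZT1, 8.00 to 44.4 CPM in WT mice at ZT13 and 3.58 to 13.4 CPM in ASIC1a-/- mice at ZT13. The growth hormone gene *Gh* was at 0.253 to 26.7 CPM. In WT mice *Gh*, *Prl*, *Cga* and *Fshb* passed the test between ZT13 and ZT1, all higher at ZT13. Of all tested genes, 13.3% passed that comparison. *Pou1f1*, the factor of the growth hormone and prolactin cells, had 0 to 3 counts per library, *Lhb* 0 to 5.36 and *Pitx1* 0 to 31. *Tbx19* and *Pax7*, factors of the pituitary cells that make *Pomc*, stayed at 1.02 to 2.14 CPM and 0.840 to 1.43 CPM, also where *Gh* was as low as 0.253 CPM. Whether they report pituitary cells in this tissue was not tested. Both are part of the pituitary sum, with means of 1.56 and 1.13 CPM, and so make up much of the smallest sums.

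Mean *Pomc* was 46.4 CPM in WT mice at ZT1 and 46.5 CPM at ZT13, where the mean pituitary sums were 4.32 and 25.1 CPM. Within WT mice at ZT13, the library with the largest pituitary sum had the highest *Pomc* (44.4 and 54.7 CPM) and the one with the smallest had the lowest (8.00 and 33.8 CPM). Other groups differed, since in WT mice at ZT1 the highest *Pomc* (53.2 CPM) came with a pituitary sum of 3.38 CPM and the largest sum (6.66 CPM) with 48.9 CPM of *Pomc*, and in ASIC1a-/- mice at ZT1 the largest sum (16.4 CPM) came with 50.8 CPM, the third highest of 4. At ZT1, where the pituitary sums of the genotypes did not overlap, the *Pomc* difference of 0.19 became -0.023 when log2 *Gh* was added to the fit (adjusted p = 1.00), and the change of *Pomc* from ZT1 to ZT13 in WT mice became -0.33 (adjusted p = 0.382). Over the alternatives those adjusted p values ran from 0.552 to 1.00 and from 0.382 to 1.00. In neither of these comparisons did the pituitary sums of the groups overlap, so pituitary tissue cannot be told apart there from genotype or time. The part of pituitary tissue in the *Pomc* level was not tested further.

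**Figure D3:**
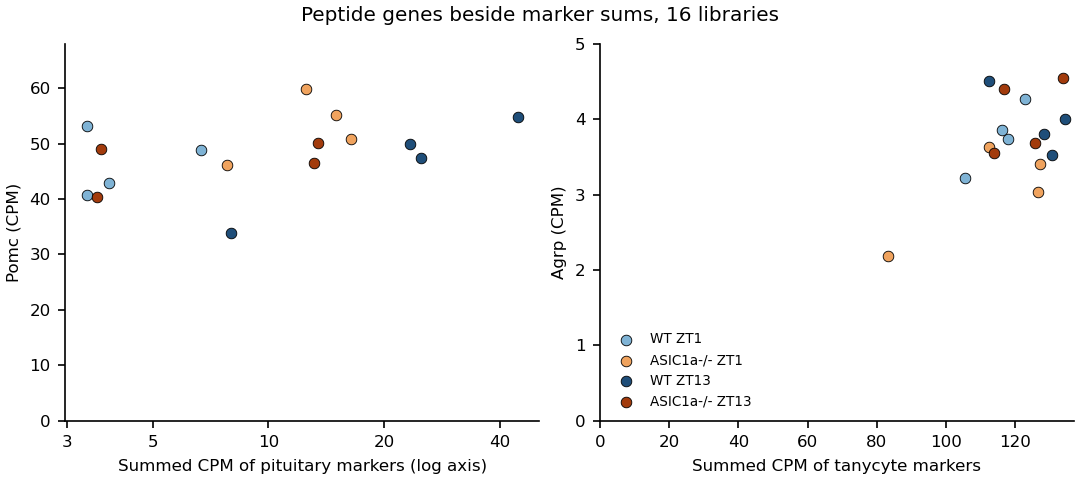
Left, *Pomc* (CPM) against the summed CPM of 10 pituitary markers (log axis) and right, *Agrp* (CPM) against the summed CPM of 7 tanycyte markers, with 1 point per library coloured by group. *Pomc* stays between 33.8 and 59.8 CPM while the pituitary sum runs from 3.37 to 44.4 CPM. The sum includes *Tbx19* and *Pax7*, which varied little, and *Gh* alone runs from 0.253 to 26.7 CPM. The library lowest in tanycyte markers (83.2 CPM) is also lowest in *Agrp* (2.18 CPM).

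Some markers of neighbouring cells stood apart in the ASIC1a-/- ZT1 libraries with the lowest *Npy*, though not in every library where *Npy* or *Agrp* was low. The 8 markers of other arcuate neurons, 7 of them tested, summed to 311 to 459 CPM in ASIC1a-/- mice at ZT1 and 210 to 344 CPM in WT mice at ZT1, with the highest sums in ASIC1a-/- ZT1 replicates 2 (459 CPM) and 4 (436 CPM), the 2 libraries lowest in *Npy*. Replicate 3, below every WT mouse at ZT1 in both *Agrp* and *Npy*, had a sum of 313 CPM, next to 311 CPM in replicate 1. The sums followed 2 dopamine genes, the dopamine transporter *Slc6a3* (4.98 to 178 CPM over the 16 libraries) and *Th* (30.0 to 104 CPM). In contrast, *Tac2* (18.3 to 22.0 CPM), *Pdyn* (80.7 to 97.3), *Prlr* (39.2 to 47.4), *Gal* (22.1 to 28.0) and *Ghrh* (3.56 to 5.37) varied far less. The median log2 difference of the list between genotypes at ZT1 was 0.083. The sums thus describe *Slc6a3* and *Th* rather than arcuate neurons as a set, and which cells carried these 2 transcripts was not tested. *Slc6a3* was at 62.8, 178, 64.7 and 157 CPM in ASIC1a-/- and 95.6, 7.59, 21.7 and 8.61 CPM in WT mice at ZT1 and did not pass (adjusted p = 0.680). *Th*, which encodes the first enzyme in the making of dopamine, was at 81.4 CPM at ZT1 and 45.2 CPM at ZT13 in ASIC1a-/- mice and fell by 0.85 on the log2 scale (adjusted p = 0.0244, range over alternatives 0.00162 to 0.466). The call on *Th* was lost under 9 of 28 alternatives, among them those without ASIC1a-/- ZT1 replicate 2 or 4 and without ASIC1a-/- ZT13 replicate 1 or 2. In replicate 2 the 7 tanycyte markers deviated by -0.73 on the log2 scale from their means over all libraries, and *Agrp* was lowest. In replicate 4 the meningeal sum was highest, and *Npy* was lowest. The part of these tissue differences in the *Agrp* and *Npy* values was not tested beyond leaving the libraries out.

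The ratios of the peptides within a library do not depend on library scaling. The log2 ratio of *Agrp* to *Npy* in TPM ran from -3.33 to -2.63 over the 16 libraries, with group means of -3.04 ± 0.202 (WT ZT1), -3.06 ± 0.304 (ASIC1a-/- ZT1), -2.94 ± 0.101 (WT ZT13) and -2.87 ± 0.0892 (ASIC1a-/- ZT13; SD, n = 4). *Npy* was thus 7.87 times *Agrp* on average, and 7.31 to 8.33 times in the 4 groups. The log2 ratio of *Agrp* to *Pomc* was at -2.93, -3.81, -3.56 and -3.29 in ASIC1a-/- mice at ZT1 and at -2.91, -2.98, -2.67 and -2.99 in WT mice at ZT1. In ASIC1a-/- mice at ZT1, 3 of 4 libraries therefore lay below every WT library, with *Pomc* on average 10.5 times *Agrp* there against 7.39 times in WT mice. At ZT13 the mean log2 ratio of *Agrp* to *Pomc* was -2.80 in both genotypes, with ranges of -3.03 to -2.17 in WT and -3.05 to -2.47 in ASIC1a-/- mice.

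Across the 16 hypothalami, *Pomc* and *Cartpt* varied together. Over log2 CPM, Pearson's r was 0.892 (permutation p = 2e-05, adjusted p = 0.00012 over the 6 pairs of the 4 genes) and the rank correlation rho (Spearman) 0.729 (permutation p = 0.00184, adjusted p = 0.0110). With each library set against its own group mean, which removes genotype and time, r was 0.922 (permutation p = 0.00032, adjusted p = 0.00192) and rho was 0.868. With the 2 libraries most distant from the *Pomc* median left out, ASIC1a-/- ZT1 replicate 3 and WT ZT13 replicate 3, r was 0.738, and leaving out any 1 library gave 0.804 to 0.939. The spread of *Pomc* was wider than that of *Cartpt*, so their log2 TPM ratio ran from -0.50 to -0.040. The points share their library, and so also the piece of tissue that was taken.

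*Cartpt* was the gene most like *Pomc*, and *Pomc* the gene most like *Cartpt*, among 12078 genes with a mean of at least 5 CPM, ranked by Pearson's r of log2 CPM over the 16 libraries, and each was also first after group means were removed. Next to *Pomc* came *Lypla1* (r 0.830), *Mlc1* (0.806), *Galnt4* (0.798) and *Tpd52* (0.783). Next to *Cartpt* came *Tmem176b* (0.867), *Ftl1* (0.786), *Irgm1* (0.740) and *Lypla1* (0.729). These values are the highest of many and are given as a description, with no test.

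*Agrp* and *Npy* were less closely tied. Their r was 0.675 (permutation p = 0.00771, adjusted p = 0.0231) and rho 0.606 (permutation p = 0.0137, adjusted p = 0.0273), but with group means removed r was 0.497 (permutation p = 0.217, adjusted p = 0.410). With the 2 most distant from the *Agrp* median left out, ASIC1a-/- ZT1 replicate 2 and ASIC1a-/- ZT13 replicate 2, r was 0.484. Without ASIC1a-/- ZT1 replicate 2 alone it was 0.474 (adjusted p = 0.144, range over alternatives 0.00786 to 0.144), so the call by r rests on that library. The rank correlation moved little, with a rho of 0.600 without both libraries, and was 0.462 (adjusted p = 0.430) with group means removed. *Npy* stood 161st among the genes most like *Agrp*. The 5 nearest to *Agrp* were *Prdm4* (r 0.875), *Cep290* (0.856), *Nfrkb* (0.856), *Csmd3* (0.843) and *Usp34* (0.837), and the 5 nearest to *Npy* were *Camk2b* (0.877), *Plppr3* (0.831), *B230334C09Rik* (0.828), *Cacnb2* (0.824) and *Whamm* (0.820).

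Between the opposed pairs the signs were negative. *Npy* and *Pomc* had an r of -0.521 (permutation p = 0.0414, adjusted p = 0.0829) and a rho of -0.653 (permutation p = 0.00741, adjusted p = 0.0222). With group means removed, r was -0.363 (adjusted p = 0.410) and rho was -0.253 (permutation p = 0.366, adjusted p = 0.549), so neither passed. *Agrp* and *Pomc* had an r of -0.370 (adjusted p = 0.223), *Agrp* and *Cartpt* -0.321 (adjusted p = 0.223), and *Npy* and *Cartpt* -0.319 (adjusted p = 0.223). None of these 4 pairs passed by r after adjustment.

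**Figure D4:**
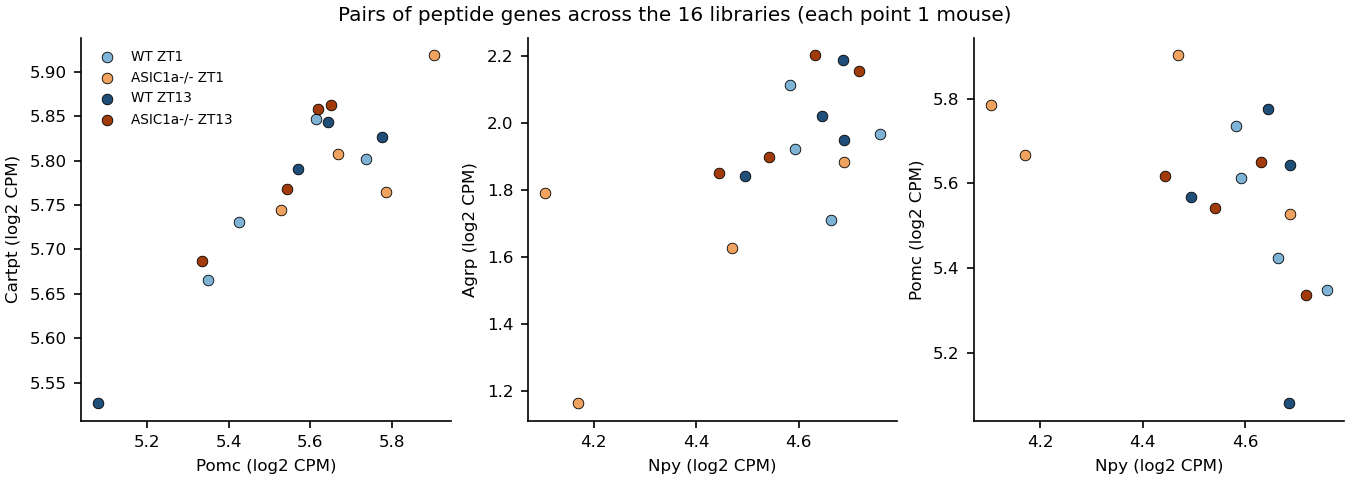
Log2 CPM of *Cartpt* against *Pomc* (left), *Agrp* against *Npy* (middle) and *Pomc* against *Npy* (right), with 1 point per library coloured by group. The *Pomc* and *Cartpt* points of all groups run together (r 0.892), and 1 ASIC1a-/- ZT1 library lies far below the rest in the middle panel.

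The receptors on which the peptides act, and the hormone receptors of these neurons, were compared in the same way. No member of any of the 12 gene lists passed a genotype comparison or the interaction, which 0.0127% to 0.101% of tested genes passed. The paper, under its own threshold, reports the pituitary marker *Prl* as lower in ASIC1a-/- mice at ZT13 by RNA-seq and RT-qPCR. Here *Prl* was among the 6 tested pituitary markers, and none of them passed in that comparison at an adjusted p under 0.05. Their median log2 difference was -1.23, a value of the list and not of *Prl* alone. Of 11 receptors, 3 were higher at ZT13 than at ZT1 in the mean of both genotypes and none was lower (median log2 difference 0.035, and -0.0049 over all tested genes). These were *Mc4r*, the receptor for α-MSH and AgRP, by 0.22 (adjusted p = 0.0350), the insulin receptor *Insr* by 0.099 (adjusted p = 0.0306) and the ghrelin receptor *Ghsr* by 0.13 (adjusted p = 0.0443). Under 11, 12 and 16 of 27 alternatives, respectively, these calls were lost. In WT mice *Ghsr*, which AgRP/NPY neurons carry, was the receptor that passed, by 0.25 (adjusted p = 0.0174, range over alternatives 0.0115 to 0.163, lost under 6 of 28, among them those without WT ZT1 replicate 2 or 4 or WT ZT13 replicate 4), and in ASIC1a-/- mice none did. Of all tested genes, 14.3% were higher at ZT13 and 12.1% lower in the mean of both genotypes, 26.4% in all. The share of receptors called was near this. The leptin receptor *Lepr* differed by -0.11 (interval -0.38 to 0.16).

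Of 11 regulators of these neurons, *Isl1* and *Bsx* were called higher at ZT13 in the mean of both genotypes and 0 lower (median 0.067). Of all tested genes, 14.3% were called higher there and 12.1% lower. Neither regulator passed in ASIC1a-/- mice alone. *Isl1*, a homeodomain factor needed for the identity of POMC and AgRP neurons, differed by 0.20 (SE 0.0414, adjusted p = 0.00142), and its mean rose from 20.0 to 23.9 CPM in WT mice (adjusted p = 0.00841). *Bsx*, a homeodomain factor known to be needed for *Agrp* and *Npy* transcription, differed by 0.30 (SE 0.0715, adjusted p = 0.00491), from 10.9 to 13.8 CPM in WT mice (adjusted p = 0.0363). For the mean of both genotypes, *Isl1* lost its call with the TPM scales alone and *Bsx* without the 4 libraries alone (adjusted p = 0.0554), of 27 alternatives. In WT mice the call on *Bsx* was lost under 10 of 28 alternatives, 6 of which left out 1 WT library (any of ZT1, or ZT13 replicate 2 or 4), and that on *Isl1* under 3. For the mean, the adjusted p of *Isl1* ran from 0.000128 to 0.103 and that of *Bsx* from 0.000522 to 0.0554. Beside these, *Agrp* and *Npy* themselves differed by 0.24 and 0.096 without passing.

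Of 7 genes listed as markers of AgRP/NPY neurons, *Corin* was higher at ZT13 by 0.37 (adjusted p = 0.0196, range over alternatives 0.00880 to 0.111) and *Ghsr* as above, while the median of the list was -0.017. The list also held *Slc32a1*, *Gad1* and *Gad2*, genes of GABA neurons in general, at means of 120, 402 and 459 CPM. Its median and sum therefore do not describe AgRP/NPY neurons alone. *Corin* is a serine protease of these neurons, at a mean of 1.87 CPM here. Of 10 genes that cut, amidate or store the precursors, *Chga* differed by 0.12 (adjusted p = 0.0448) and *Pam*, the amidating enzyme, by 0.070 (adjusted p = 0.00998), with a list median of -0.0058. The convertases that cut pro-opiomelanocortin did not pass, with *Pcsk1* at -0.047 (adjusted p = 0.229) and *Pcsk2* at -0.0018 (adjusted p = 0.952). The call on *Chga* was lost under 17 of 27 alternatives and that on *Pam* under 3.

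Of 7 tested genes listed as markers of other arcuate neurons, *Prlr*, the prolactin receptor, was higher at ZT13 by 0.16 (adjusted p = 7.44e-05) and *Th* lower by 0.52 (adjusted p = 0.0273). The call on *Th* was lost under 11 of 27 alternatives, 6 of which left out 1 library (WT ZT1 replicate 1, ASIC1a-/- ZT1 replicate 2 or 4, WT ZT13 replicate 3 or 4, or ASIC1a-/- ZT13 replicate 2), and that on *Prlr* under the TPM scales. Of 7 tanycyte markers, *Vcan* was higher by 0.22 (adjusted p = 0.000203) and *Rax*, a tanycyte homeodomain factor, by 0.74 (adjusted p = 0.00519), and both calls held under all 27 alternatives. *Rax* was low, at a mean of 1.61 CPM with 22 to 96 counts per library, and passed in neither genotype alone. Of 11 tested feeding peptides of other nuclei, *Crh* was lower by 0.38 (adjusted p = 0.0326, lost under 10 of 27 alternatives). *Fezf1* was higher by 0.14 among 9 markers of hypothalamic nuclei (adjusted p = 0.0211), *Drd1* by 0.32 among 10 of striatum, cortex and thalamus (adjusted p = 0.00241) and *Cga* among 6 tested pituitary markers (adjusted p = 0.0272). How the calls on *Fezf1*, *Drd1* and *Cga* held under the alternatives is not given here. None of the 9 meningeal markers passed.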

How the data were processed

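Hypothalamic RNA of 16 mice was sequenced, 1 library per mouse, and samples were grouped by the labels' titles. Per the submitters' processing notes the authors used cutadapt 1.8, STAR 2.5.3a, HTSeq 0.9.1 and RSEM 1.2.31. The methods name GRCm38 and the notes also mm9, and the methods and the labels name different RNA and library kits. The deposited expected counts are RSEM estimates per gene, not normalized, and 4.85% of values are not whole. The deposited TPM values were scaled by the authors with RSEM for effective transcript length and library total.

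The members and gene lists were chosen with earlier results of these data known. Expected counts were rounded and modelled by 4 group means over all 16 libraries with edgeR 4.0.16 (R 4.3.3), using its quasi-likelihood F test and TMM scaling. Genes had to exceed 1 CPM in 1 or more libraries, which kept 15808. P-values were Benjamini-Hochberg adjusted over these genes within each of 7 comparisons, and the threshold was 0.05. CPM values use TMM-scaled library sizes. Intervals of 95% come from the SE and the t quantile of the fit. TPM alternatives used limma 3.58.1 on log2(TPM + 1) and log2(TPM + 0.1). Other alternatives were DESeq2 1.42.0, its size factors, library size only, other filters, a replicate block, log2 *Gh* as a covariate, the compared libraries only, leaving out each library, and, added after the data were seen, leaving out 2 or 4 libraries apart in tissue markers. Relations were tested with 100000 permutations of libraries (within groups for group-centred values), two-sided, and their alternatives were leaving out each library and log2(TPM + 1). The edgeR fit was tested on simulated data.

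Named genes were the 4 members, up to 4 members of each list past the test per comparison by smallest p (otherwise the smallest p of a described list), the 5 genes most like each member, *Asic1*, and markers beside a result. *Lepr*, *Pcsk1* and *Pcsk2* were named outside this rule after their values were seen. Gene positions and symbols are from GENCODE M21, start-site windows from RefSeq. Pairs of libraries within a group were further apart than counting allows (chi-square per degree of freedom 3.18 to 11.3 over 24 pairs), so none was a copy. The biological coefficient of variation was 6.06%. The sources give no sequencing batch.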

Additional observations from a re-analysis of the deposited data

Results flagged for a closer look

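None of the 4 peptide genes had a library that stood apart from the other 3 of its group. The check covered 36 sets of 4 libraries, of which chance flags about 1 in 20, and 4 stood apart, all of them marker sums. The gap of the extreme library to its nearest neighbour exceeded the 95% critical value of Dixon's test in each. The markers of other arcuate neurons summed to 344 CPM in WT ZT1 replicate 1, against 210 to 230 CPM in the other 3 libraries, a sum that followed *Slc6a3* (95.6 CPM, against 7.59 to 21.7 CPM) and *Th* (71.0 CPM, against 33.6 to 39.5 CPM). The pituitary markers summed to 6.66 CPM in WT ZT1 replicate 2, against 3.37 to 3.85 CPM. The meningeal markers summed to 387 CPM in ASIC1a-/- ZT1 replicate 4, against 69.0 to 112 CPM, and to 199 CPM in ASIC1a-/- ZT13 replicate 2, against 49.3 to 54.1 CPM.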

How the results depend on the processing

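No call of a member between genotypes or in the interaction changed under any alternative. Without ASIC1a-/- ZT1 replicate 1, *Agrp* and *Npy* passed between the times in ASIC1a-/- mice (adjusted p = 0.0482 and 0.0167) and *Npy* in the mean of both genotypes (0.0462). With *Gh* as a covariate *Agrp* passed in the mean of both genotypes at 0.32 (adjusted p = 0.0478, range over alternatives to 0.463). The relation of *Agrp* and *Npy* lost its call without ASIC1a-/- ZT1 replicate 2. All other changes were of sign, in differences that did not pass, and their causes were not tested.

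With *Gh* as a covariate the log2 differences turned for *Agrp* at ZT13 (-0.17) and in the interaction (-0.041), for *Npy* over time in WT (0.15) and in the interaction (-0.0096), for *Pomc* at ZT1 (-0.023), over time in WT (-0.33) and in the interaction (0.27), and for *Cartpt* at ZT1 (-0.073), over time in ASIC1a-/- mice (0.061) and in the interaction (0.26). Without the 2 libraries high in meningeal markers, the genotype difference at ZT13 was -0.028 for *Agrp* and -0.038 for *Pomc*, and without the 4 libraries it was again -0.028 and -0.038. Without the 4, *Npy* differed over time by -0.0071 in ASIC1a-/- mice and -0.012 in the mean, and *Pomc* in WT by -0.035. *Pomc* over time in WT was -0.00228 with the compared libraries only and -0.014 with either TPM scale. With the TPM scales, *Cartpt* over time was 0.015 and 0.016 in ASIC1a-/- mice, 0.0018 in the mean, and 0.027 in the interaction, which was 0.0050 with library size only.

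Leaving out 1 library at a time gave -0.029 to 0.10 for *Agrp*, -0.088 to 0.0031 for *Npy*, -0.12 to 0.090 for *Pomc* and -0.023 to 0.079 for *Cartpt* between genotypes at ZT13. Over time in WT it gave -0.00059 to 0.14, -0.043 to 0.022, -0.090 to 0.12 and -0.043 to 0.054 in the same order. In ASIC1a-/- mice it gave 0.27 to 0.49 for *Agrp*, 0.13 to 0.33 for *Npy* and -0.038 to 0.021 for *Cartpt*, in the mean of both genotypes 0.055 to 0.16 for *Npy* and -0.029 to 0.019 for *Cartpt*, and in the interaction -0.070 to 0.034 for *Cartpt*. The relation of *Agrp* and *Npy* ran from 0.474 to 0.797.

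The replicate numbers did not pair the mice. Deviations of same-numbered libraries correlated at -0.316 to 0.217, over 0.1 in 4 of 24 pairs, and in 6 of 24 comparisons of a library with another group the best match was its own number. With the number as a replicate block no member changed its call and *Pomc* over time in WT was -0.0049, while the interaction called 5 genes against 3.

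Counts of all called genes moved with the method. Genotype at ZT1 called 2 genes, 1 with the TPM scales and 15 with no filter, and 7 with DESeq2. Genotype at ZT13 called 16, with a range of 9 to 30, the mean over times 10 (6 to 23), the interaction 3 (0 to 17), time in WT 2099 (260 to 2205), in ASIC1a-/- mice 1792 (602 to 1919) and in the mean 4170 (2546 to 4210). The lowest of the first 2 time counts came from *Gh* as a covariate and from leaving out the 4 libraries. With 4 mice a group, depth limits *Agrp* most, at 78 to 187 counts.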
